A study of Bos taurus with 30 samples.

Results

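The state of the early corpus luteum a day after prostaglandin F2α (PGF2α) was described from 10 arrays, of 30 in the series. The corpus luteum develops from the ovulated follicle and is the ovary's source of progesterone. The 5 arrays titled as day 4 gland 24 h after PGF2α were set against the 5 titled as day 4 gland at 0 h, and all 24016 probe sets other than controls were tested. The tissue came from Angus crossbred heifers (Bos taurus) of unstated age, each giving RNA for 1 Affymetrix GeneChip Bovine Genome Array. The 0 h heifers had received saline and the 24 h heifers PGF2α, both on day 4 of the estrous cycle. The other groups, also of 5, were day 4 at 4 h after PGF2α and day 11 at 0 h (saline), 4 h and 24 h, in a completely random factorial layout. Saline was sampled only at 0 h, so what PGF2α does and what another day of development does cannot be told apart at 24 h.

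PGF2α acts through a Gq-coupled receptor, PTGFR, which raises calcium and activates protein kinase C and MAP kinases. In a mature bovine gland it ends progesterone output and starts regression. The young gland carries the receptor and answers acutely, yet goes on to form a working corpus luteum. At this stage endothelial and steroidogenic cells still divide, and luteinizing hormone sustains the steroidogenic cells through its receptor LHCGR. Cholesterol taken up or made by the cell is carried into mitochondria by STAR, cleaved to pregnenolone by CYP11A1 and turned into progesterone by HSD3B1.

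In the 24 h gland the core genes of progesterone synthesis differed from 0 h by 0.22 log2 units or less and passed no test. The LH receptor LHCGR rose 2.22-fold, and CYP17A1, the enzyme that leads to androgens, rose 9.86-fold. Genes of the cell cycle fell, by amounts that differed widely between heifers. Chemokines and cytokines that were high at 4 h passed no test against 0 h in the fit to 30 arrays. These results follow in that order, after the size and spread of the whole change.

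Calls were made by limma at an adjusted p below 0.05, with 1 shared estimate of spread over the 30 arrays. By that rule 1240 of 24016 probe sets (5.16%) differed at 24 h, 508 higher (2.12%) and 732 lower (3.05%). Their median absolute difference was 0.60 log2 units (1 unit is 2-fold), and 69 were at least 2-fold higher and 175 at least 2-fold lower. The 5 values of each time did not overlap in 1055 probe sets (4.39%), of which 515 were also called. A fit to the 10 arrays alone, which takes the spread from them only, called 147 (0.612%), 102 higher and 45 lower, and 127 of these were among the 1240. Below, a call means the fit to 30 arrays, and a gene called by the fit to 10 arrays too is named as called by both fits. The median difference of all probe sets was 0.0126. Of the called probe sets 858 had 1 gene symbol, and each of the 9155 genes was represented by its brightest probe set. Among genes 277 rose and 433 fell.

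The 24 h arrays did not move by like amounts. Over the 508 probe sets called higher, the median deviation from the 0 h mean was 0.31, 0.63, 0.62, 0.81 and 0.42 in replicates 1 to 5, and over the 732 called lower it was -0.17, -0.76, -0.59, -1.03 and -0.47. These values describe the genes chosen for their change. On these probe sets replicate 1 stayed closest to the 0 h group and replicate 4 lay farthest. Replicate 1 stood apart elsewhere. The mean of 21 cytosolic heat shock protein genes, chaperones of protein folding, deviated by 0.45, -0.24, -0.25, -0.30 and -0.06 in replicates 1 to 5, against -0.06 to 0.06 in the 0 h arrays. In replicate 1 14 of them lay above every 0 h array, and in replicates 2 to 5 15, 12, 14 and 6 lay below every one. The same count was not made over all genes, so these have no share to be set beside. None of the 21 was called by limma in either fit, and 5 had an unadjusted p under 0.05. Such a p was found for 4200 of 24016 probe sets and 2159 of 9155 genes. Counts at an unadjusted p, here and below, are to be set beside these shares. Without replicate 1 there were 5 falls, in a fit that called 1201 probe sets lower. Over all probe sets, the count at least 2-fold from the 0 h mean was 138, 599, 571, 1049 and 173 in replicates 1 to 5, against 98 to 179 in single 0 h arrays. Replicates 1 and 5 were thus inside the range of the 0 h arrays by this measure. On the first principal component of all 30 arrays, which held 36.5% of the variance, the 0 h arrays lay from -50.7 to -42.1. Replicates 1 to 5 at 24 h lay at -45.7, -13.1, -20.1, 4.4 and -33.1.

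The wide spread was a feature of the called probe sets. Over all probe sets the median SD was 0.170 at 24 h, 0.165 at 0 h and 0.155 to 0.216 across the 6 groups. Over the called ones it was 0.304 at 24 h against 0.178 at 0 h and 0.179 at 4 h. The SD at 24 h exceeded that at 0 h in 52.9% of all probe sets and in 76.5% of the called ones, and was more than 2 times as large in 507 of these. Without 24 h replicate 4 the median SD of the called probe sets at 24 h was 0.256, and without replicate 1 it was 0.262. The number called moved with single arrays. It was 2071 without 24 h replicate 1, 497 without replicate 2 and 357 without replicate 4, and 720 and 734 without 0 h replicates 3 and 4.

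**Figure D1:**
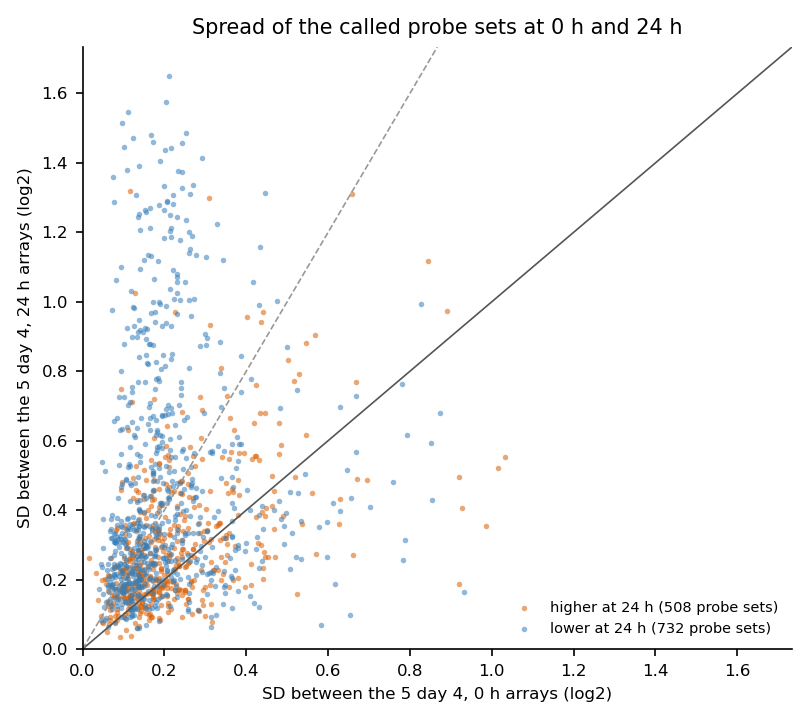
SD between the 5 day 4 arrays at 0 h (x axis, log2 units) and at 24 h (y axis, log2 units) of the 1240 called probe sets, 508 higher (orange) and 732 lower (blue). The solid line marks equal SD and the dashed line an SD at 24 h of 2 times that at 0 h, and 507 probe sets lie above the dashed line.

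Signs of RNA and array quality were compared by exact two-sided permutation tests, whose smallest possible p is 0.0079. The 3′ minus 5′ difference of the actin controls was 2.08 at 24 h and 1.89 at 0 h (exact permutation p = 0.19, adjusted p = 0.45). That of GAPDH was 0.41 and 0.42 (exact permutation p = 0.64, adjusted p = 0.64). Arrays of a group correlated at 0.9787 to 0.9936 at 24 h and at 0.9876 to 0.9933 at 0 h across probe sets. The mean correlation of an array with its group was 0.9887 at 24 h and 0.9913 at 0 h (exact permutation p = 0.032, adjusted p = 0.16). The number of arrays limits the precision of every value. Neither a scan date nor a slide number was among the labels used here, and the files give no batch.

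Steroidogenic genes were read first. 8 of 11 markers of luteal steroidogenic cells had a higher mean at 24 h. 3 rose, where 2.12% of all probe sets and 277 of 9155 genes did. The count was 2 without 24 h replicate 2, 1 without replicate 4 and 0 in the fit to 10 arrays. Their median difference was 0.16, against 0.000769 for all genes. STAR (Entrez Gene 281507), the mitochondrial cholesterol carrier, had signals of 12.79, 13.17, 13.22, 13.21 and 13.06 at 24 h and 13.00, 13.00, 12.81, 12.75 and 12.80 at 0 h. All but the first of the 24 h values lay above every 0 h value, and the difference of 0.22 ± 0.21 (SE) did not pass (adjusted p = 0.7). CYP11A1 (Entrez Gene 338048), the side-chain cleavage enzyme, differed by 0.16 ± 0.07 (SE), adjusted p = 0.21. HSD3B1 (Entrez Gene 281824), which completes progesterone, stood at 13.58 ± 0.05 (SD) at 24 h and 13.56 ± 0.08 (SD) at 0 h, a difference of 0.01 ± 0.19 (SE) (adjusted p = 0.99). OXT, which encodes luteal oxytocin, differed by -0.01 ± 0.07 (SE), adjusted p = 0.96.

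LHCGR (Entrez Gene 281900), the LH receptor, had signals of 7.51, 7.93, 8.10, 7.62 and 8.08 in the 24 h arrays and 5.75, 7.56, 6.76, 6.51 and 6.93 in the 0 h arrays. The groups overlapped only in 0 h replicate 2, which lay above the lowest 24 h array. The rise was 1.15 ± 0.29 (SE), adjusted p = 0.016. NR5A1, the nuclear receptor that switches on steroidogenic genes, rose by 0.74 ± 0.18 (SE), adjusted p = 0.015. It stood at 10.32 ± 0.20 (SD) at 24 h and 9.58 ± 0.37 (SD) at 0 h, and only 0 h replicate 2 came as high as the lowest 24 h array. SCARB1, the receptor that takes up cholesterol from high-density lipoprotein, rose by 0.35 ± 0.08 (SE), adjusted p = 0.013, with no overlap between the groups. Leaving out 1 array ended the call of LHCGR without 0 h replicate 1 or 24 h replicate 2 (adjusted p = 0.0029 to 0.068), and that of NR5A1 without 0 h replicate 1 or 24 h replicate 4 (adjusted p = 0.0031 to 0.062). It ended also that of SCARB1 without 24 h replicate 4 (adjusted p = 0.0026 to 0.08). Here and below, a range in parentheses after a call that was lost is that of the gene's adjusted p over all alternatives tried. LHCGR has 3 probe sets, of which the other 2 differed by 1.44 and 0.02.

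The largest rise of any named gene was that of CYP17A1 (Entrez Gene 281739), the 17-alpha-hydroxylase known from theca cells of the follicle. Its signals were 8.740, 8.996, 9.457, 9.124 and 8.538 at 24 h and 5.184, 7.428, 5.322, 5.246 and 5.168 at 0 h. Every 24 h array lay above every 0 h array, and 0 h replicate 2 stood between the rest of its group and the 24 h arrays. The difference was 3.30 ± 0.43 (SE), or 9.86-fold (adjusted p = 0.0002, and 0.016 in the fit to 10 arrays). At 4 h the mean was 5.56 ± 0.86 (SD), and 24 h exceeded 4 h by 3.41 ± 0.43 (SE), adjusted p = 3.8e-06. On day 11 the means were 6.36 at 0 h and 6.71 at 24 h. Of 11 granulosa, theca and oocyte markers it was the only one called, where 5.16% of all probe sets and 710 of 9155 genes were. INSL3, a theca cell hormone, differed by -0.04 ± 0.54 (SE) at a signal of 9.27. CYP19A1, the aromatase of granulosa cells, differed by 0.18 ± 0.19 (SE), and FSHR, the FSH receptor, was near background at 3.28. Near background here means a group mean below 4.50 log2 units, the 30th percentile of probe set means. By that measure 5 of the 11 markers were near background at both times, which limits the lack of other calls. In whole tissue, fewer cells of a type and less RNA per cell cannot be told apart.

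**Figure D2:**
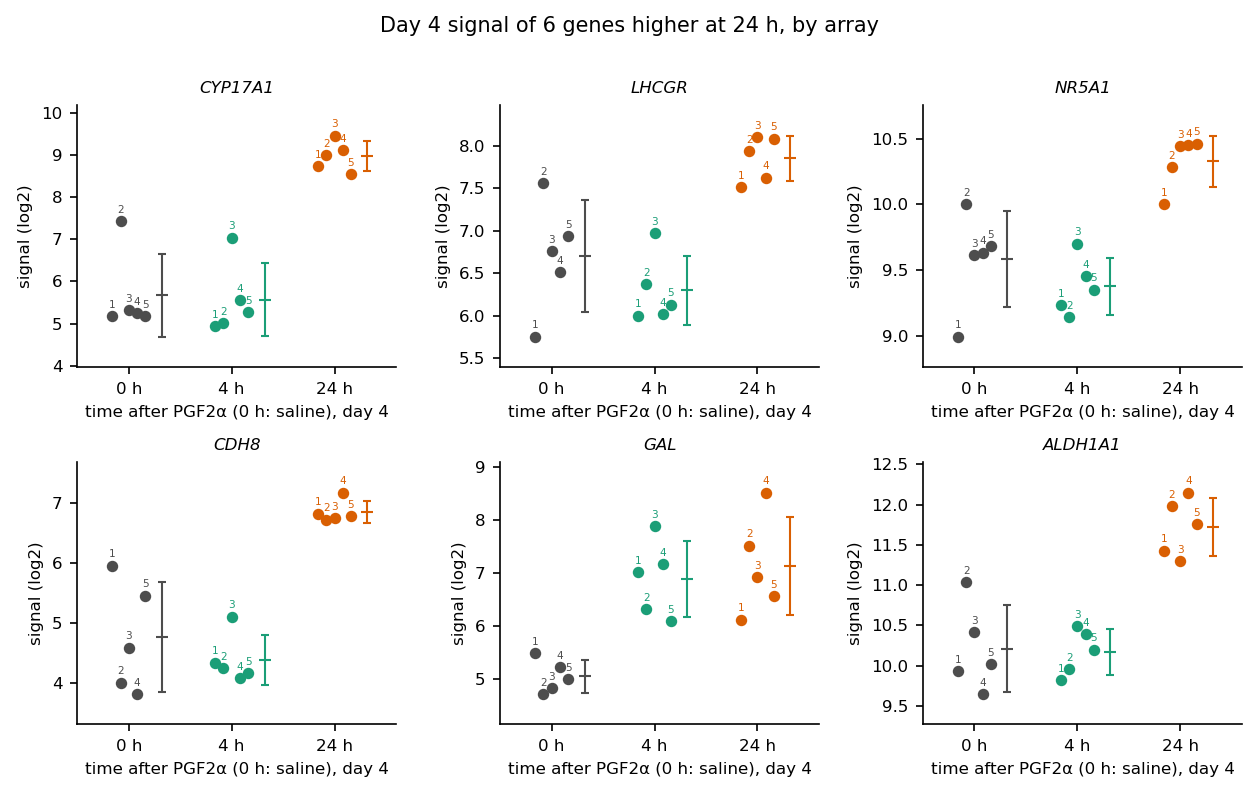
Log2 signal (y axis) of CYP17A1, LHCGR, NR5A1, CDH8, GAL and ALDH1A1 in the day 4 arrays at 0 h (saline), 4 h and 24 h (x axis), 5 arrays a time, numbered by replicate, with the mean and SD beside them. The 24 h signals of CYP17A1 lie between 8.54 and 9.46, all above the 0 h and 4 h arrays, while GAL is already at a mean of 6.89 at 4 h.

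Genes that supply cholesterol leaned the same way. Of 27 genes of cholesterol synthesis, uptake and efflux, 26 had a higher mean at 24 h. 5 rose, where 2.12% of all probe sets and 277 of 9155 genes did. Their median difference was 0.40. The rises were those of TM7SF2, a sterol reductase, by 0.95, of MVK and MVD, kinase and decarboxylase of the mevalonate pathway, by 0.62 and 0.61, of NPC2, which moves cholesterol out of lysosomes, by 0.36, and of SCARB1. TM7SF2 had signals of 10.09, 11.23, 10.91, 11.68 and 10.59 at 24 h and 9.69, 10.16, 10.04, 9.96 and 9.91 at 0 h. Its first 24 h value lay among the 0 h values and the others above them. The mean of the list stood 0.16, 0.56, 0.36, 0.63 and 0.25 above the 0 h mean in 24 h replicates 1 to 5, against -0.09 to 0.05 in the 0 h arrays. In leave-one-out fits there was no call of MVD without 0 h replicate 1 or 24 h replicates 2 or 4 (adjusted p = 0.0055 to 0.11), and none of MVK without 0 h replicates 1, 2 or 3 or 24 h replicates 2, 3 or 4 (adjusted p = 0.0018 to 0.15). Nor was there one of TM7SF2 without 24 h replicates 2 or 4 (adjusted p = 0.0013 to 0.087), and none of NPC2 without 0 h replicates 1, 3, 4 or 5 or 24 h replicates 2, 3 or 4 (adjusted p = 0.0085 to 0.16). The list's count was 1 without replicate 2, 0 without replicate 4, 3 without replicate 3 and 0 in the fit to 10 arrays.

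Among 21 receptors for hormones that sustain or end luteal function, LHCGR alone was called over 30 arrays. Of all probe sets 5.16% were called, and of 9155 genes 710. Without 24 h replicate 1 the list had 3 calls, and without replicate 2 it had 0. PTGFR (Entrez Gene 282020), the PGF2α receptor, was at 11.68, 11.55, 11.28, 11.16 and 11.88 at 24 h, 10.27, 10.66, 10.71, 10.69 and 10.61 at 4 h and 11.42, 11.36, 11.51, 11.40 and 11.58 at 0 h. The 24 h arrays overlapped with those at 0 h, with a difference of 0.06 ± 0.14 (SE), adjusted p = 0.91. All of them lay above those at 4 h, by 0.92 ± 0.14 (SE), adjusted p = 4.8e-05. PTHLH, the parathyroid hormone-related peptide, had the same shape, with means of 10.79, 8.87 and 10.72 at 0, 4 and 24 h. Its difference between 24 and 4 h was 1.86 ± 0.24 (SE), adjusted p = 5e-06. None of 14 genes of prostaglandin synthesis, transport and breakdown was called by limma in the fit to 30 or to 10 arrays, and 2 had an unadjusted p under 0.05. Without 24 h replicate 1 there was 1 call, a lower gene. The nearest by p was PTGES, which makes prostaglandin E2, at -0.97 ± 0.36 (SE), adjusted p = 0.12. HPGD, which breaks prostaglandins down, differed by -0.14 (adjusted p = 0.87). In the calcium and kinase list under the receptor, ITPR1, a calcium channel of the endoplasmic reticulum, rose by 1.02 ± 0.18 (SE). MAP2K3, a kinase of the p38 pathway, fell by 0.38. These were 2 calls among 24 genes, near the share of all genes, of which 710 of 9155 were called (5.16% of all probe sets). The count was 4 without 24 h replicate 1, 1 without replicate 2 or 4 and 0 in the fit to 10 arrays. Averaging the 5 probe sets of ITPR1 ended its call, at an adjusted p of 0.3 (7.7e-05 to 0.3 over its alternatives). The call ended for MAP2K3 without 0 h replicates 1, 3 or 4 or 24 h replicates 2 or 4 (adjusted p = 0.0044 to 0.12).

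Of the gene lists read, that of the cell cycle held the most falls. Every one of 74 cell cycle and mitosis genes had a lower mean at 24 h. 58 fell, where 3.05% of all probe sets and 433 of 9155 genes did. The median difference was -1.10, and single genes ran from -1.90 to -0.02. CCNA2 (Entrez Gene 281667), the cyclin of S phase and mitosis, had signals of 7.94, 5.90, 6.72, 4.61 and 7.19 at 24 h and 8.08, 8.05, 8.44, 8.36 and 8.05 at 0 h. Replicate 1 was just below the 0 h range and replicate 4 far below it. RRM2, the ribonucleotide reductase subunit that makes deoxynucleotides, had 10.62, 8.76, 9.70, 7.01 and 10.22 against 10.96, 10.67, 11.08, 10.99 and 10.63, in the same order of replicates. CDCA8, part of the chromosomal passenger complex, had 8.63, 6.18, 7.31, 4.26 and 7.49 against 8.33, 8.67, 8.87, 8.81 and 8.69, and here replicate 1 lay inside the 0 h range.

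The differences were -1.72 ± 0.38 (SE), adjusted p = 0.0085 for CCNA2, -1.61 ± 0.45 (SE), adjusted p = 0.034 for RRM2 and -1.90 ± 0.48 (SE), adjusted p = 0.018 for CDCA8. CCNB1, CCNB2 and CDK1, the engine of mitotic entry, fell by 1.84, 1.85 and 1.71. The spindle gene ASPM fell by 1.73, the mitotic kinase PLK1 by 1.27, and BUB1B and SKA3, of the spindle checkpoint and the kinetochore, by 1.30 and 1.31. UHRF1, which keeps DNA methylation through replication, fell by 1.46 and BIRC5, a passenger complex subunit and apoptosis inhibitor, by 1.47. Among leave-one-out fits the call was lost for RRM2 without 0 h replicates 1, 3 or 4 or 24 h replicates 2 or 4 (adjusted p = 0.0058 to 0.16), and for CDCA8, CCNB1, CDK1, BUB1B and BIRC5 without 24 h replicates 2 or 4 (adjusted p = 0.00097 to 0.12, 0.00036 to 0.12, 0.00071 to 0.12, 0.00076 to 0.091 and 0.00071 to 0.093).

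The mean of the cell cycle list deviated from the 0 h mean by -0.07, -1.45, -0.99, -2.17 and -0.56 in 24 h replicates 1 to 5, while the 0 h arrays ranged from -0.11 to 0.13. Members below all 5 of the 0 h arrays numbered 9, 70, 67, 70 and 64 of 74 in those replicates. So 4 heifers were low over most of the list and replicate 1 was not. The share of all genes below every 0 h array was not counted for single arrays. Groups did not overlap in 9 of the 74 genes, where they did not in 4.39% of all probe sets and 568 of 9155 genes. None of the 74 was called by limma in the fit to 10 arrays, while 68 had an unadjusted p under 0.05 over 30 arrays. Without replicate 1 the count was 66, without replicate 2 it was 22 and without replicate 4 it was 19. On day 11 the mean level of the list was 7.07 at 0 h, where the day 4 gland went from 8.89 at 0 h to 8.68 at 4 h and 7.85 at 24 h. At 24 h, 47 of the genes were lower than at 4 h and 1 was higher. That comparison called 3580 probe sets (14.9%) and 1834 of 9155 genes, 901 of these lower.

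**Figure D3:**
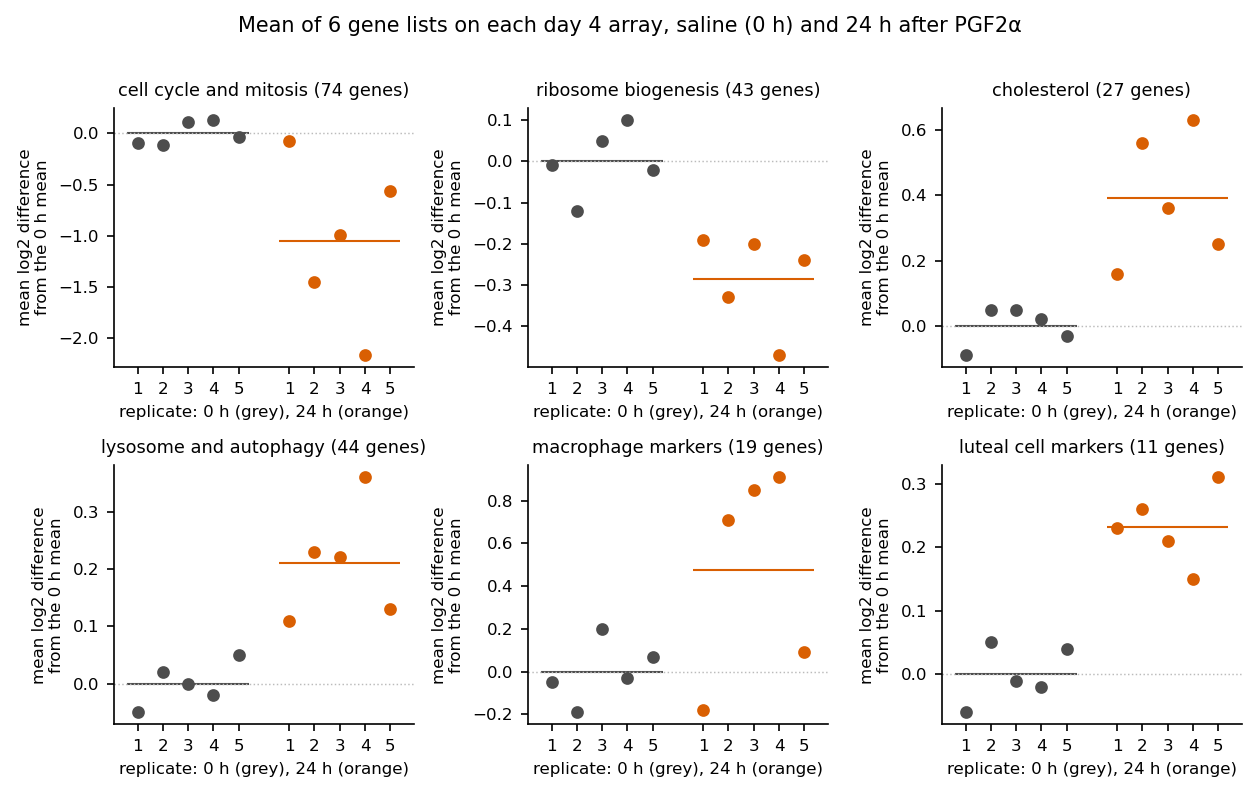
Mean log2 difference from the day 4, 0 h mean (y axis) over the genes of 6 lists, for each of 5 arrays at 0 h (grey) and 24 h (orange), numbered by replicate on the x axis, with lines at the group means. The cell cycle list falls from -0.07 in 24 h replicate 1 to -2.17 in replicate 4, and the macrophage list is high in replicates 2, 3 and 4.

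Markers of macrophages and monocytes varied over the same arrays. Their list mean deviated by -0.18, 0.71, 0.85, 0.91 and 0.09 in replicates 1 to 5 (-0.19 to 0.20 at 0 h), so replicates 2, 3 and 4, with low cell cycle genes, were also high in these markers. The level of the list ran from 6.41 to 6.80 at 0 h and from 6.42 to 7.51 at 24 h. Its part in the cell cycle result was not tested. Of 19 markers 16 had a higher mean, and 1 was called, where 5.16% of all probe sets and 710 of 9155 genes were. The count was 6 without replicate 1, in a fit that called 2071 of 24016 probe sets. It was 2 without replicate 5, and 0 without replicate 2 or 4 or in the fit to 10 arrays. The called marker was SPP1, the secreted phosphoprotein osteopontin, which rose by 1.59 ± 0.42 (SE), adjusted p = 0.023. Its signals were 9.728, 11.106, 10.688, 12.076 and 9.809 at 24 h and 8.996, 8.511, 10.356, 8.079 and 9.534 at 0 h. The highest 24 h array was again replicate 4, and 0 h replicate 3 lay above 2 of the 24 h arrays. Leaving out 1 array ended the call of SPP1 without 0 h replicates 1, 2 or 4 or 24 h replicates 2 or 4 (adjusted p = 0.007 to 0.13).

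Genes of RNA polymerase I and ribosome biogenesis were lower by less, and more evenly. 40 of 43 genes had a lower mean, with a median of -0.32. 12 fell, where 3.05% of all probe sets and 433 of 9155 genes did. LYAR, a nucleolar factor of rRNA processing, had signals of 7.24, 6.44, 6.56, 5.88 and 6.91 at 24 h and 7.42, 7.30, 7.76, 7.75 and 7.35 at 0 h, without overlap. It fell by 0.91, NOP56 and FBL, core proteins of box C/D snoRNPs, by 0.72 and 0.61, and GNL3 (nucleostemin) by 0.47. UTP18 and WDR43, of the small subunit processome, fell by 0.55 and 0.54, and both fits called them. UTP18 was at 6.99, 6.92, 6.82, 6.71 and 6.74 against 7.65, 7.19, 7.47, 7.34 and 7.27, with every 24 h array below every 0 h array. The list mean deviated by -0.19, -0.33, -0.20, -0.47 and -0.24 in replicates 1 to 5 (-0.12 to 0.10 at 0 h), so replicate 1 was low here too. In leave-one-out fits there was no call of NOP56 and FBL without 24 h replicate 4 (adjusted p = 0.0046 to 0.094 and 0.00072 to 0.08), and none of GNL3 without 0 h replicates 3 or 4 or 24 h replicates 2 or 4 (adjusted p = 0.015 to 0.12). The list's count was 18 without replicate 1, 4 without replicate 4 and 2 in the fit to 10 arrays. The 63 ribosomal protein genes themselves had a median of 0.03 and no call by limma in either fit, and 0 had an unadjusted p under 0.05. Mitochondrial ribosome and import genes had 3 falls of 80 and a median of -0.13, and the count was 13 without replicate 1 and 0 without replicate 4.

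Several genes of the acute response had 24 h means near those of 0 h. IL1B, an inflammatory cytokine, was at 4.41, 4.22, 5.00, 4.92 and 4.51 at 24 h, 9.73, 8.82, 8.22, 5.72 and 8.62 at 4 h and 4.69, 3.97, 4.81, 4.37 and 4.81 at 0 h. The 24 h and 0 h arrays overlapped throughout and the 4 h arrays lay above both. From 4 to 24 h its difference was -3.61 ± 0.55 (SE), adjusted p = 4.1e-05, and from 0 to 24 h 0.08 ± 0.55 (SE), adjusted p = 0.97. AREG, a ligand of the EGF receptor, was 7.04 ± 0.91 (SD) at 0 h, 10.65 ± 0.14 (SD) at 4 h and 6.90 ± 0.65 (SD) at 24 h. Its 24 h level differed from that at 4 h by -3.75 ± 0.31 (SE), adjusted p = 2.7e-09. FGF2, an angiogenic growth factor, had means of 4.18, 8.64 and 4.59, the first near background. CXCL8, the neutrophil attractant, had 5.11, 8.53 and 5.01. The 4 h and the 24 h group share the same 0 h arrays, and each value is given for itself.

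**Figure D4:**
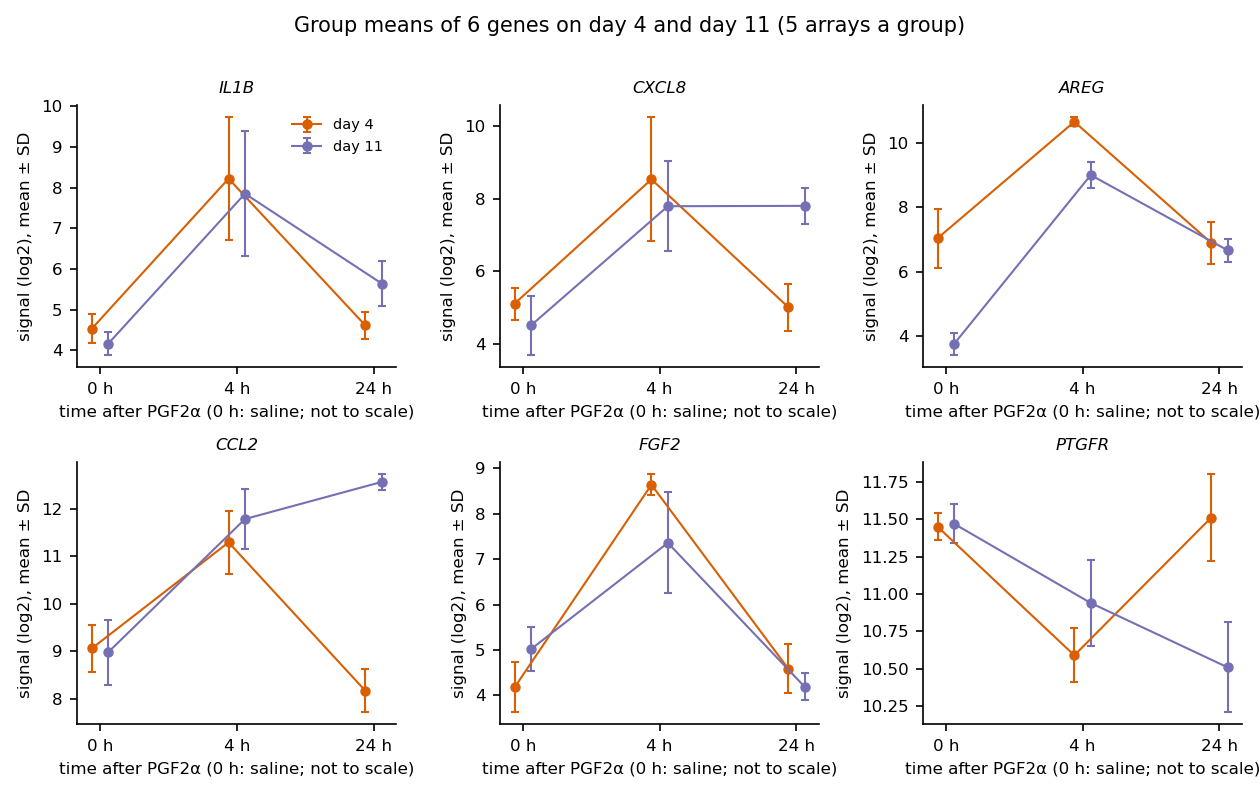
Mean log2 signal with SD (y axis, 5 arrays a point) of IL1B, CXCL8, AREG, CCL2, FGF2 and PTGFR at 0 h (saline), 4 h and 24 h after PGF2α (x axis) on day 4 (orange) and day 11 (purple). On day 4 the 24 h mean of IL1B is 4.61 and its 0 h mean 4.53, while CCL2 is at 8.17 and 9.06, and on day 11 CCL2 reaches 12.56.

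CCL2, which attracts monocytes, was at 7.65, 7.85, 8.12, 8.71 and 8.54 at 24 h and 8.99, 8.44, 9.58, 8.76 and 9.51 at 0 h. The 24 h values were the lower ones on the whole but reached into the 0 h range, and the difference was -0.88 ± 0.32 (SE), adjusted p = 0.11. It differed from the 4 h level by -3.11 ± 0.32 (SE), adjusted p = 1.2e-07. None of 39 chemokine and cytokine genes was called by limma over 30 arrays at 24 h against 0 h. An unadjusted p under 0.05 was found for 5, where it was for 4200 of 24016 probe sets and 2159 of 9155 genes. Lower than at 4 h were 19 of the 39, where 1739 of 24016 probe sets and 901 of 9155 genes were. Without 24 h replicate 1 or replicate 5 the list had 1 call, a higher gene. The fit to 10 arrays called 1, CSF1, the growth factor of macrophages, whose difference was -0.43 ± 0.15 (SE) (adjusted p = 0.035 there and 0.09 over 30 arrays). Endothelin, EDN1, differed from 0 h by -0.27 (adjusted p = 0.76) and from 4 h by -1.63 ± 0.30 (SE), adjusted p = 0.00042. INHBA, an activin subunit, differed from 0 h by 0.14 (adjusted p = 0.91) and from 4 h by -1.55 ± 0.34 (SE), adjusted p = 0.0021. The stress factor ATF3 stood 0.52 from its 0 h mean (adjusted p = 0.4), FOS -0.57 (adjusted p = 0.54) and NR4A1, an orphan nuclear receptor of the same early class, 0.99 (adjusted p = 0.29).

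A few inflammatory and immediate-early genes ended below their 0 h level. PTX3 (Entrez Gene 541148), a soluble pattern recognition protein, was at 7.90, 6.57, 7.25, 7.36 and 7.45 at 24 h and 9.86, 8.05, 9.55, 9.31 and 8.48 at 0 h. All 24 h arrays lay below all 0 h arrays, and the difference was -1.74 ± 0.37 (SE), adjusted p = 0.0071, called by both fits. SELE, the endothelial selectin that tethers leukocytes, was at 5.55, 5.13, 5.54, 4.55 and 4.95 against 6.76, 5.99, 6.11, 6.67 and 6.07, again without overlap, and fell by 1.17 in both fits. VCAM1, another adhesion molecule of vessels, fell by 1.06 without overlap. TNFAIP6, a hyaluronan-binding protein of inflamed tissue, fell by 1.00. SELE, VCAM1 and TNFAIP6 were the 3 calls among 30 genes of the NF-kB pathway and cytokine receptors. Against 0 h, 3.05% of all probe sets and 433 of 9155 genes fell. Below their 4 h level were 22 of the 30, where 1739 of 24016 probe sets and 901 of 9155 genes were. Either way, 14.9% of all probe sets differed between 24 h and 4 h. Of 25 immediate-early genes, MYC, a growth-promoting transcription factor, fell by 0.56 and SGK1, a kinase induced by serum and glucocorticoid, by 0.84. The list held these 2 falls, to be set beside the same shares, and 12 of its genes were below 4 h. Its count at 24 h against 0 h was 1 without 24 h replicate 2 or 4 and 0 in the fit to 10 arrays. SGK1 in 24 h replicate 1 was at 9.59, the lowest of the 5. The call ended for SELE without 0 h replicates 1 or 4 or 24 h replicates 2 or 4 (adjusted p = 0.0033 to 0.098), and for TNFAIP6 without 0 h replicates 1, 2, 3 or 4 or 24 h replicates 2, 3 or 4 (adjusted p = 0.0064 to 0.18). It ended also for MYC without 0 h replicate 1 or 24 h replicates 2 or 4 (adjusted p = 0.005 to 0.08). The count of the NF-kB list was 1 without replicate 2 or 4, 6 without replicate 1 and 1 in the fit to 10 arrays.

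**Figure D5:**
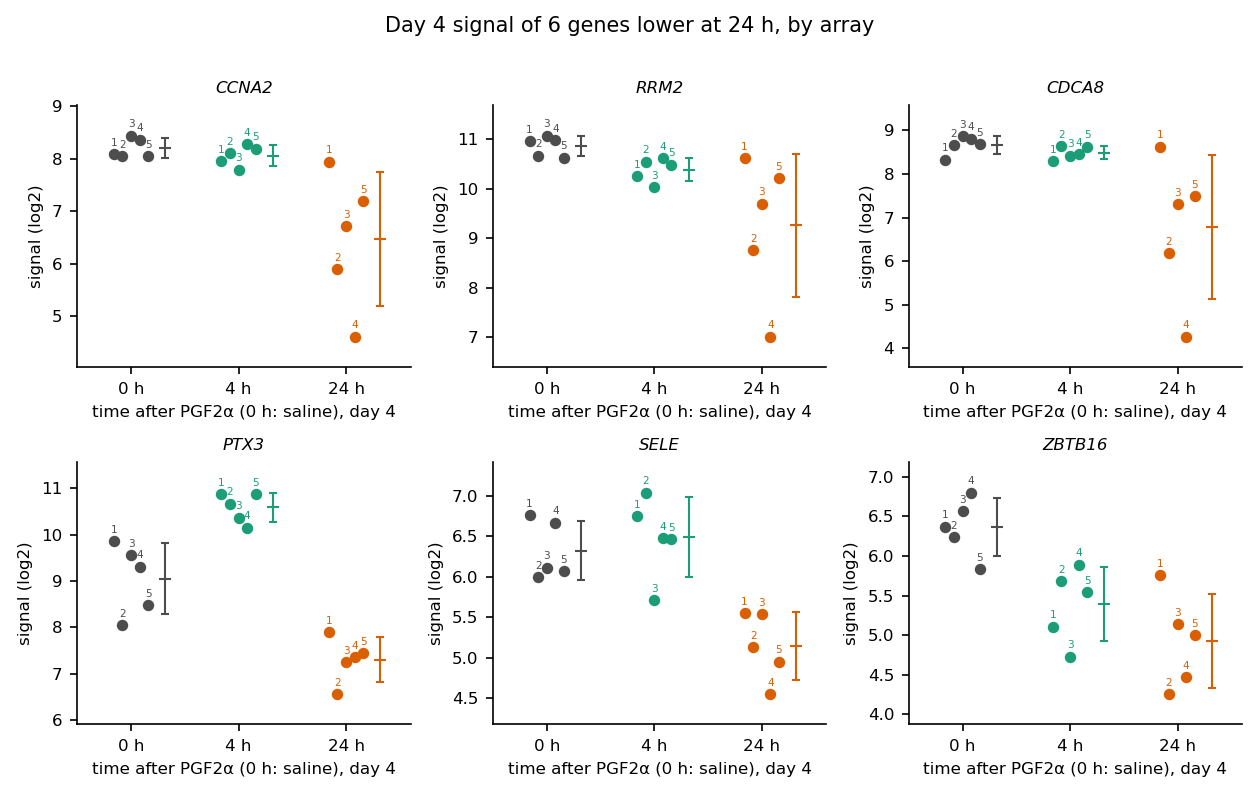
Log2 signal (y axis) of CCNA2, RRM2, CDCA8, PTX3, SELE and ZBTB16 in the day 4 arrays at 0 h (saline), 4 h and 24 h (x axis), 5 arrays a time, numbered by replicate, with the mean and SD beside them. The 24 h arrays of the first 3 genes spread from near the 0 h level in replicate 1 to far below it in replicate 4, while PTX3 lies between 6.57 and 7.90 in all 5.

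Markers of leukocytes and of antigen presentation leaned upward in their means. Their calls are to be set beside 5.16% of all probe sets and 710 of 9155 genes. Complement components had a higher mean in 21 of 22 genes and a median of 0.39, with C4A alone called, at 0.81 ± 0.21 (SE), adjusted p = 0.022. Without replicate 1 the count was 5, and without replicate 2, 3 or 4 it was 0. T and NK cell markers were higher in 28 of 31 with a median of 0.23, and none was called by limma, 3 having an unadjusted p under 0.05. Of these 31 markers 16 were near background at both times, which limits both the lean and the lack of calls. The nearest by p were CD247, a chain of the T cell receptor complex, at 0.58 ± 0.19 (SE), adjusted p = 0.065, and IL2RG, the common cytokine receptor chain, at 0.51 ± 0.20 (SE), adjusted p = 0.14. MHC class II genes had a median of 0.22 and no call by limma, 2 having an unadjusted p under 0.05. BOLA-DRA differed by 0.54 ± 0.24 (SE), adjusted p = 0.21, and CTSS, a protease of the class II pathway, by 0.61 ± 0.23 (SE), adjusted p = 0.13. Without 24 h replicate 1 both were called, at 0.75 (adjusted p = 0.037 to 0.48 over the alternatives) and 0.83 (adjusted p = 0.014 to 0.36). CD247 was called without 24 h replicate 1 or 5 (adjusted p = 0.012 to 0.21). In the class I list PSMB9, an immunoproteasome subunit, rose by 0.86 ± 0.18 (SE), adjusted p = 0.0065, without overlap. The fit to 10 arrays called no gene of these lists. Among leave-one-out fits the call was lost for C4A without 0 h replicate 1 or 24 h replicates 2, 3 or 4 (adjusted p = 0.0023 to 0.12).

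The list means of complement deviated by -0.26, 0.57, 0.87, 0.82 and 0.11 and of T and NK cells by 0.01, 0.28, 0.43, 0.24 and 0.15 in replicates 1 to 5. Replicates 2 to 4 were highest in both. None of 10 B and plasma cell markers was called by limma in either fit, 0 having an unadjusted p under 0.05, and their list mean deviated by -0.08, 0.12, 0.84, -0.01 and 0.10, high in replicate 3 alone. There JCHAIN, which joins secreted antibodies, was at 9.81 where the other 24 h arrays had 7.18 to 7.76, and MZB1, a plasma cell chaperone, at 6.75 where they had 5.20 to 5.50. Neutrophil and eosinophil markers (18 genes, median 0.13), interferon-stimulated genes (26, -0.07) and red blood cell and platelet genes (10, -0.01) had no call by limma in either fit. An unadjusted p under 0.05 was found for 0, 1 and 0 of them. Near background at both times were 11, 2 and 7 of them, and 6 of the B and plasma cell markers.

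Vascular genes were read next. 22 endothelial markers had a median of -0.04 and 1 call, where 5.16% of all probe sets and 710 of 9155 genes were called. The call was NOS3, the endothelial nitric oxide synthase, which fell by 0.91. Its signals were 7.25, 6.92, 6.98, 6.53 and 7.61 against 8.34, 7.84, 7.90, 8.39 and 7.40. The last 24 h array lay inside the 0 h range. CDH5, the cadherin of endothelial junctions, differed by -0.01 ± 0.10 (SE) and PECAM1 by -0.08 ± 0.15 (SE). VEGFA (Entrez Gene 281572), the angiogenic factor, was at 11.31, 10.66, 10.60, 9.91 and 10.93 against 11.27, 10.82, 10.65, 10.92 and 10.95, overlapping, with a difference of -0.24 ± 0.18 (SE), adjusted p = 0.57. FGF1, a growth factor of the same axis, rose by 0.60 in its brightest probe set, 1 of 12, and was not called with their mean. Of 16 mural cell markers RGS5, of pericytes, rose by 0.53 and SMTN, of contractile smooth muscle, fell by 0.53, the only calls. Leaving out 1 array ended the call of NOS3 and FGF1 without 0 h replicates 1, 3 or 4 or 24 h replicates 2, 3 or 4 (adjusted p = 0.0089 to 0.13 and 0.0016 to 0.11), and that of RGS5 without 0 h replicates 3, 4 or 5 or 24 h replicates 2, 3 or 4 (adjusted p = 0.02 to 0.17). It ended also that of SMTN without 24 h replicate 4 (adjusted p = 0.0023 to 0.056).

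In the matrix, OGN (osteoglycin) rose by 1.41 ± 0.31 (SE), adjusted p = 0.009, the one call among 45 collagens and glycoproteins. Of all probe sets 5.16% were called, and of 9155 genes 710. Without 24 h replicate 1 the list had 2 rises and 2 falls, in a fit that called 2071 of 24016 probe sets. TIMP2, an inhibitor of matrix proteases, rose by 0.31 ± 0.07 (SE) without overlap, with all 3 of its probe sets called, and PLAU, the urokinase that activates plasminogen, fell by 0.66. None of 12 fibroblast markers was called by limma in either fit, 2 having an unadjusted p under 0.05, and LUM (lumican) differed by 0.43 ± 0.14 (SE), adjusted p = 0.062. Among epithelial and junction genes CDH1 fell by 1.19 and CDH2 rose by 1.00. E-cadherin, the product of CDH1, was at 6.65, 6.32, 6.70, 6.29 and 6.52 against 7.99, 7.48, 8.60, 7.03 and 7.35, a tight 24 h group wholly below a scattered 0 h group. CDH1 has 2 probe sets, and the other differed by -0.34. CDH8, another cadherin, rose by 2.09 ± 0.35 (SE), adjusted p = 0.0015, called by both fits, with signals of 6.82, 6.72, 6.74, 7.17 and 6.78 against 5.95, 4.00, 4.58, 3.81 and 5.45. Its 24 h arrays were likewise close together above all others. In leave-one-out fits there was no call of PLAU without 0 h replicates 1, 2 or 4 or 24 h replicates 2 or 4 (adjusted p = 0.019 to 0.18), and none of CDH2 without 24 h replicate 4 (adjusted p = 0.003 to 0.085).

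Lysosome genes rose in part. 36 of 44 had a higher mean, with a median of 0.17. 6 rose, where 2.12% of all probe sets and 277 of 9155 genes did. CTSF, a cysteine protease, had signals of 8.18, 9.10, 8.89, 9.72 and 8.74 against 7.57, 8.14, 7.83, 7.95 and 7.82, without overlap, and rose by 1.06 ± 0.19 (SE), adjusted p = 0.0025. PSAP, the precursor of saposins, rose by 0.42, the protease CTSD by 0.40, the sulfatase ARSA by 0.46, the galactosidase GLB1 by 0.47 and the autophagy protein MAP1LC3A by 0.49. The list mean stood at 0.11, 0.23, 0.22, 0.36 and 0.13 in replicates 1 to 5, all above the 0 h range of -0.05 to 0.05. The call ended for CTSD without 24 h replicate 4 (adjusted p = 0.003 to 0.078), and for ARSA without 24 h replicates 2 or 4 (adjusted p = 0.0028 to 0.063). It ended also for GLB1 without 0 h replicates 1, 2, 3 or 4 or 24 h replicates 2, 3 or 4 (adjusted p = 0.0053 to 0.17), and for MAP1LC3A without 0 h replicate 3 or 24 h replicates 2 or 4 (adjusted p = 0.0033 to 0.12). The count was 11 without replicate 1, 3 without replicate 2, 2 without replicate 4 and 0 in the fit to 10 arrays.

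Of energy metabolism, 76 respiratory chain genes had 1 call and a median of 0.03, where 5.16% of all probe sets and 710 of 9155 genes were called. The same shares are the ones to set beside the counts of the lists that follow. Above their 4 h level were 16 of the 76, where 1841 of 24016 probe sets and 933 of 9155 genes were. ETFA and ETFB, which feed electrons from fatty acid oxidation to the chain, rose by 0.42 and 0.28, the 2 calls of 42 genes of the TCA cycle and fatty acid oxidation, where the count was 0 without replicate 2 or 4. PFKM, a phosphofructokinase of glycolysis, was at 8.76, 9.28, 9.39, 9.60 and 9.05 against 8.13, 8.22, 8.22, 8.15 and 8.51, without overlap. It rose by 0.97 ± 0.16 (SE), adjusted p = 0.0013, by both fits and with all 3 of its probe sets called. ALDOC, an aldolase, rose by 0.71 and EGLN3, an oxygen-sensing hydroxylase near background at 0 h, by 0.91. These were the 3 calls of 33 hypoxia and glycolysis genes, whose median was -0.05. Without 24 h replicate 1 the list had 3 rises and 5 falls, without replicate 2 or 3 it had 2 rises, and without replicate 4 or in the fit to 10 arrays it had 1. LPL, the lipase that frees fatty acids from lipoproteins, rose by 1.10 ± 0.25 (SE), adjusted p = 0.01, and DGAT2, which makes triglyceride, by 0.54. G0S2, an inhibitor of fat breakdown, fell by 1.17 and PPARG, a nuclear receptor of fat storage, by 0.57. SRXN1, which restores peroxiredoxins, rose by 0.73, 1 call of 35 antioxidant genes. That list had 5 rises and 1 fall without 24 h replicate 1, 2 rises without replicate 5 and no call without replicate 2, 3 or 4. Among leave-one-out fits the call was lost for ETFA without 24 h replicates 2 or 4 (adjusted p = 0.0045 to 0.078), and for ETFB without 0 h replicates 1 or 3 or 24 h replicates 2 or 4 (adjusted p = 0.0053 to 0.11). It was lost too for ALDOC without 0 h replicates 1, 2 or 3 or 24 h replicates 2 or 4 (adjusted p = 0.0072 to 0.16), and for EGLN3 without 0 h replicates 2, 3 or 5 or 24 h replicates 3 or 4 (adjusted p = 0.0079 to 0.16). It was lost too for DGAT2 without 0 h replicate 1 (adjusted p = 0.0017 to 0.061), and for G0S2 without 0 h replicates 3 or 4 or 24 h replicate 4 (adjusted p = 0.0085 to 0.086). It was lost too for PPARG without 0 h replicates 1 or 3 or 24 h replicates 2, 4 or 5 (adjusted p = 0.0087 to 0.15), and for SRXN1 without 0 h replicates 1, 3 or 4 or 24 h replicates 2, 3 or 4 (adjusted p = 0.0021 to 0.11).

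The remaining large rises came from genes of varied roles. GAL (Entrez Gene 280799), the neuropeptide galanin, was at 6.11, 7.51, 6.92, 8.51 and 6.56 at 24 h, 7.01, 6.31, 7.88, 7.16 and 6.08 at 4 h and 5.48, 4.71, 4.82, 5.22 and 4.99 at 0 h. It was above 0 h in all 24 h arrays, by 2.08 ± 0.34 (SE), adjusted p = 0.0013, and overlapped with 4 h (24 minus 4 h 0.23 ± 0.34 (SE), adjusted p = 0.77). ALDH1A1, a retinaldehyde dehydrogenase, was at 11.43, 11.98, 11.30, 12.15 and 11.76 against 9.93, 11.04, 10.42, 9.65 and 10.02, all above, a rise of 1.51 ± 0.24 (SE), adjusted p = 0.00087. GPC3, a glypican that binds growth factors, rose by 1.60, AQP11, a water channel, by 1.59 and ABHD6, a lipase for monoacylglycerol, by 1.47. FGF12, a growth factor homolog that acts inside the cell and was near background at 0 h, rose by 1.58, FIBIN by 1.47, FAM107A by 1.41, AKAP4, an anchor of protein kinase A, by 1.22 and TCP11L2 by 1.19. Both fits called all of these from GAL to TCP11L2, and each kept its call in every leave-one-out fit. TNNT1, a skeletal troponin, rose by 1.58, PLBD1, a phospholipase B-like protein, by 1.32 and BAMBI, a decoy receptor for TGF-beta, by 1.24. Leaving out 1 array ended the call of TNNT1 without 24 h replicates 2 or 4 (adjusted p = 0.0022 to 0.09).

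Among the largest falls outside the cell cycle was ZBTB16, a zinc finger transcription factor, which was at 5.76, 4.26, 5.14, 4.47 and 5.00 against 6.37, 6.24, 6.57, 6.80 and 5.83, without overlap. The difference was -1.43 ± 0.25 (SE), adjusted p = 0.0016. Both fits called it, and so did they C23H6orf141, which fell by 1.22. NUDT11, a pyrophosphatase of inositol phosphates, fell by 1.23. SHCBP1, IQGAP3, ARHGEF39 and FAM83D fell by 1.65, 1.61, 1.70 and 1.27, each with replicate 1 highest and replicate 4 lowest of the 24 h arrays. Of transporters, SLC29A1, for nucleosides, fell by 0.73, SLC1A5, for glutamine, by 0.92, and SLC6A6, for taurine, rose by 0.80. IGFBP7, a binding protein of the IGF system, rose by 0.31 ± 0.07 (SE), adjusted p = 0.0087, without overlap. In leave-one-out fits there was no call of NUDT11 without 0 h replicates 2 or 3 or 24 h replicates 2 or 4 (adjusted p = 0.0083 to 0.13), and none of SHCBP1 and SLC1A5 without 24 h replicates 2 or 4 (adjusted p = 0.0013 to 0.12 and 0.00023 to 0.084). Nor was there one of IQGAP3 and FAM83D without 24 h replicate 4 (adjusted p = 0.00045 to 0.078 and 0.00059 to 0.094), and none of SLC6A6 without 24 h replicate 2 (adjusted p = 0.0013 to 0.062).

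Within the 24 h group the called genes differed greatly in how alike the heifers were. CDCA8, CCNB1 and CDK1 were among the 6 genes with the largest SD, at 1.65, 1.58 and 1.46, and OIP5, a centromere protein, was another at 1.46. Their SDs at 0 h were 0.21, 0.20, 0.17 and 0.24. At the other end SEL1L, of endoplasmic reticulum protein disposal, rose by 0.29 with an SD of 0.04, and ETFB had 0.06. CYP17A1, the gene with the largest rise, had an SD of 0.35 at 24 h and of 0.98 at 0 h. The call ended for OIP5 without 0 h replicate 4 or 24 h replicates 2 or 4 (adjusted p = 0.00097 to 0.14), and for SEL1L without 0 h replicates 1, 3 or 4 or 24 h replicates 2 or 4 (adjusted p = 0.011 to 0.11).

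Whether the 24 h change differed between the days was tested as the difference day 11 minus day 4. It passed for 5342 probe sets (22.2%) and for 2730 of 9155 genes, 1353 higher and 1377 lower on day 11. Each value from here on is that difference, in log2 units. Of 21 steroidogenic genes 11 were lower on day 11 and 1 higher. HSD3B1 had -2.33 ± 0.27 (SE), adjusted p = 2.4e-07, STAR -1.68 ± 0.30 (SE), adjusted p = 0.00012, and CYP11A1 -0.88 ± 0.10 (SE), adjusted p = 1.7e-07. LHCGR, which rose on day 4, went from 7.92 to 5.67 on day 11, a difference between the days of -3.39 ± 0.41 (SE), adjusted p = 4e-07. SCARB1 had -0.67 ± 0.12 (SE), adjusted p = 8.5e-05, and 20 of the 27 cholesterol genes were lower on day 11 in this test. PTGFR had -1.02 ± 0.20 (SE), adjusted p = 0.00037, PTHLH -3.60 ± 0.34 (SE), adjusted p = 1.1e-08 and VEGFA -2.89 ± 0.26 (SE), adjusted p = 5.2e-09. CYP17A1 had -2.95 ± 0.61 (SE), adjusted p = 0.00063, from a change of 0.35 on day 11. NR5A2, a relative of NR5A1, had -1.95 ± 0.40 (SE), adjusted p = 0.00056, and HPGD -1.87 ± 0.35 (SE), adjusted p = 0.00019. 66 of the 76 respiratory chain genes were lower on day 11 in this test.

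Of the chemokine and cytokine genes 14 of 39 were higher on day 11 in this test, and of the NF-kB list 16 of 30. CCL2 went from 8.98 to 12.56 on day 11, with a difference between the days of 4.46 ± 0.45 (SE), adjusted p = 3.3e-08. CXCL8 had 3.40 ± 0.83 (SE), adjusted p = 0.0029, AREG 3.05 ± 0.44 (SE), adjusted p = 6.8e-06, ATF3 2.82 ± 0.43 (SE), adjusted p = 1.3e-05, FOS 2.20 ± 0.59 (SE), adjusted p = 0.0063, INHBA 2.10 ± 0.48 (SE), adjusted p = 0.0018 and EDN1 2.04 ± 0.43 (SE), adjusted p = 0.00074. KRT18, an epithelial keratin, had 2.18 ± 0.40 (SE), adjusted p = 0.00018, at a day 4 change of -0.69 (adjusted p = 0.18). GAL, which rose on day 4, changed by 6.59 on day 11, with 4.51 ± 0.49 (SE), adjusted p = 8.6e-08 between the days. Some genes were near background on day 4 at both times, among them FABP4, a fatty acid carrier, at 3.91, and SLC2A5, a fructose transporter, at 3.70. Their differences between the days were 4.38 ± 0.45 (SE), adjusted p = 4.8e-08 and 4.89 ± 0.40 (SE), adjusted p = 1.1e-09, with sizes limited by background. SERPINA14, a uterine serpin, had 5.59 ± 0.64 (SE), adjusted p = 2.4e-07, S100A12, a neutrophil protein, 5.52 ± 0.65 (SE), adjusted p = 3e-07 and LOXL4, a collagen cross-linking enzyme, 5.04 ± 0.56 (SE), adjusted p = 1.4e-07. GAL, AREG and SERPINA14 were near background in the day 11 gland at 0 h, which limits the size of their differences too.

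The largest differences downward on day 11 included NAP1L5, a nucleosome assembly protein, at -4.22 ± 0.33 (SE), adjusted p = 5.7e-10, and BCAT2, an aminotransferase for leucine, isoleucine and valine, at -3.94 ± 0.36 (SE), adjusted p = 6.3e-09. On day 4 these stood 0.30 and 0.79 from their 0 h means, and neither passed. The troponins TNNT1 and TNNI3 had -4.14 ± 0.55 (SE), adjusted p = 2.3e-06 and -4.12 ± 0.51 (SE), adjusted p = 6.6e-07, ABHD6 -3.52 ± 0.34 (SE), adjusted p = 1.9e-08, COL13A1, a membrane collagen, -3.52 ± 0.46 (SE), adjusted p = 1.8e-06 and PTPRR, a tyrosine phosphatase, -3.92 ± 0.70 (SE), adjusted p = 0.0001. TNNT1 and ABHD6 rose on day 4, while TNNI3 differed there by 0.94 ± 0.36 (SE), adjusted p = 0.13. The days share neither heifers nor arrays.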

How the data were processed

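Corpus luteum RNA was hybridised as biotin-labelled cRNA to 30 Affymetrix GeneChip Bovine Genome Arrays, 1 per heifer, 5 per group, per the labels. The values used are the authors' deposited log2 signals, from 1.80 to 14.35, and RMA is named in the submitters' processing notes, with no version given. RMA corrects background, normalizes quantiles and summarises probes, and no further normalization was applied. Of 24128 probe sets 112 controls were left out. GEO's platform annotation gave 1 symbol for 13292 probe sets, several for 86 and none for 10638, and symbols can be old.

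limma 3.58.1 in R 4.3.3 fitted 1 mean per group over all 30 arrays, with Benjamini-Hochberg adjustment over the 24016 probe sets. The same adjustment served the difference of 24 h from 4 h and that of the days. The procedure was tested on simulated data with independent probe sets and the same spread in every group. That test does not cover the wider spread of the called probe sets at 24 h. A gene's brightest probe set over the 30 arrays represented it, and levels of different probe sets were not compared.

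Genes were eligible for naming if they were among the 15 largest rises or falls with groups apart, the 6 called members of a list with the largest change (or the 2 with the smallest p), a fixed panel of luteal genes, the 8 largest differences between the days in each direction, or the 6 called genes with the largest or smallest SD at 24 h; those with a known role were described. INSL3, CYP19A1, FSHR, CDH5 and PECAM1 were added after their values were seen. The members and gene lists were chosen with earlier results of these data known. Alternatives were another normalization, filter, variance model, threshold, probe set rule, a replicate block and each array left out. No sequences were used here. Replicates are separate heifers, so p-values rest on the spread between animals. In the fit to all arrays that spread is shared over the heifers of every group, not taken from the compared ones alone. Over the called probe sets the median SD was 0.304 on day 4 at 24 h and 0.166 to 0.22 in the other groups. For such probe sets the p-values of that fit can understate the spread between the day 4 heifers at 24 h.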

Additional observations from a re-analysis of the deposited data

Results flagged for a closer look

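The 24 h change differed between the days, by the test of the difference of day 11 minus day 4, in genes higher on day 11 and in genes lower there. Higher on day 11 were SERPINA14 (5.59 log2 units), S100A12 (5.52), LOXL4 (5.04), SLC2A5 (4.89), GAL (4.51), CCL2 (4.46), FABP4 (4.38), CXCL8 (3.40), AREG (3.05), ATF3 (2.82), FOS (2.20), KRT18 (2.18), INHBA (2.10) and EDN1 (2.04). FABP4 and SLC2A5 were near background on day 4 at both times, and GAL, AREG and SERPINA14 on day 11 at 0 h, so the sizes of their differences are limited by background. Lower on day 11 were NAP1L5 (-4.22), TNNT1 (-4.14), TNNI3 (-4.12), BCAT2 (-3.94), PTPRR (-3.92), PTHLH (-3.60), ABHD6 (-3.52), COL13A1 (-3.52), LHCGR (-3.39), CYP17A1 (-2.95), VEGFA (-2.89), HSD3B1 (-2.33), NR5A2 (-1.95), HPGD (-1.87), STAR (-1.68), PTGFR (-1.02), CYP11A1 (-0.88) and SCARB1 (-0.67). HPGD was near background on day 11 at 24 h, which limits its size in the same way.

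Single arrays stood far from the other 4 of their group by Dixon's test, which chance would flag in about 1 group in 20. The test was run at 0 h and at 24 h for genes named in the text, with no adjustment for their number. It was not run for INSL3, CYP19A1, FSHR, CDH5 and PECAM1. Chance alone would thus flag several, and which of those listed are such cannot be told. At 0 h these were CYP17A1 in replicate 2 (7.43 against 5.17 to 5.32) and PSMB9 in replicate 1 (9.43 against 10.37 to 10.46). In replicate 4 they were LUM (10.89 against 11.32 to 11.43) and PTPRR (7.98 against 9.27 to 9.70). Replicate 5 at 0 h stood apart in TNFAIP6 (11.99 against 13.09 to 13.23), FOS (8.62 against 9.86 to 10.19), S100A12 (5.82 against 6.67 to 6.87), GLB1 (9.21 against 8.56 to 8.74), PFKM (8.51 against 8.13 to 8.22) and AKAP4 (4.84 against 5.12 to 5.19). At 24 h replicate 3 stood apart in JCHAIN (9.81 against 7.18 to 7.76), MZB1 (6.75 against 5.20 to 5.50) and CDH2 (9.46 against 10.13 to 10.36). Replicate 4 did so in CDH8 (7.17 against 6.72 to 6.82), G0S2 (8.19 against 9.03 to 9.28), GLB1 (9.66 against 9.07 to 9.20) and ETFB (9.70 against 9.55 to 9.57). Others at 24 h were PTPRR in replicate 2 (8.17 against 10.46 to 10.95) and SGK1 in replicate 1 (9.59 against 10.36 to 10.54).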

How the results depend on the processing

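The number of probe sets called at 24 h against 0 h on day 4, 1240, was 147 in the fit to the 10 compared arrays, 2356 with array weights, 306 at an adjusted p under 0.01 and 244 with at least a 2-fold difference. It ran from 357 to 2071 when 1 of the 10 arrays was left out. It was 1319 after quantile normalization, 1276 with array medians subtracted, 1287 with a trended robust variance, 1750 with 1 variance per group and 1423 without the dimmest 30% of probe sets. The day 11 minus day 4 difference passed for 3422 at 0.01 and 1794 at 2-fold. That of 24 h from 4 h passed for 1934 and 538. ACTG1, a cytoplasmic actin, turned from -0.22 to 0.01 with the mean of its probe sets. Of 108 genes called among the 161 eligible for naming, 18 were called under every alternative tried and 42 in every leave-one-out fit. With replicate number as a block the count was 1390. Same-numbered arrays did not deviate together (correlations 0.0456, 0.00482, 0.0905, -0.0487 and 0.0718 for replicates 1 to 5), so the numbers were not taken as pairs. Group sizes of 5 and unequal 24 h heifers limit all counts, and a saline group at 24 h was not analysed here. The cause of these differences was not tested.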
